A study of Mus musculus with 696 samples.

Results

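The genes described here are 8 members of the Notch pathway, taken by name from the deposited table: the receptors Notch1, Notch2 and Notch3, the ligands Jag1, Jag2 and Dll1, and the target genes Hes1 and Heyl. They are 8 of the 15652 genes in the table, and all 8 were present. Single keratinocytes were sorted from the tail skin of adult female mice of mixed CBA C57BL/6 background that carried Lrig1-EGFP-ires-CreERT2 and Rosa26-fl/STOP/fl-tdTomato. Hydroxytamoxifen was put on the tail skin of every group once before wounding, so all groups carry both alleles and the drug, unwounded skin included. The Lrig1 locus drives the Cre in these mice, and tdTomato therefore marks cells that expressed Lrig1 at labelling together with all their progeny. The study places Lrig1+ stem cells at the junctional zone of the hair follicle, and also marks labelled fibroblasts in its images. The 4 groups were unwounded skin (0w), skin 1 week (1w pw1) and 8 weeks (8w pw1) past a full-thickness wound, and skin 1 week past a second wound set on the healed place (1w pw2, called 9w in the labels). Cells were taken from an area with the wound bed and with distant hair follicles. In the study mice were labelled and first wounded within a set range of ages. Age and time since labelling therefore rose with the time point and cannot be told apart from it, since these groups hold no older unwounded skin.

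Each group had 2 plates, the replicates of the labels, with 79 to 91 cells per plate and 696 cells in all. The estimated counts of a plate summed to between 1.23e+07 and 1.98e+07, and a cell held a median of 132595. A further letter in the sample names goes with the time point, so the letter and the time point cannot be told apart. Which animals are on which plate was not given in the sources used here, and p-values measure only the spread between plates, which may be technical. The study states 2 independent experiments with 4 biological replicates in each, but the labels do not tie a replicate number to one. The keratin genes of the label's cell type were present on every plate. Each listed marker of fibroblasts and immune cells stayed at or below 21.0 CPM on every plate. CPM is counts as a rate of the plate's total, which is TMM-scaled for levels of members and of single pathway genes. For marker genes, sums over gene lists and single cells the total is not scaled. Of the endothelial markers Pecam1 was in 98.7% of cells, while Kdr and Vwf stayed at or below 1.5 CPM. The 3 mural cell genes in the table (Rgs5, Acta2 and Cspg4) summed to 9.28 to 62.1 CPM, with Rgs5 at or below 0.488, and the 4 melanocyte genes to 5.07 to 86.9 CPM, mostly Mitf on the highest plate.

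Notch signalling passes between touching cells. A Jagged or Delta-like ligand on 1 cell pulls on a Notch receptor of its neighbour, the receptor is cut by ADAM and γ-secretase proteases, and its intracellular part enters the nucleus, where it joins RBPJ and Mastermind-like proteins at target genes such as those of the Hes and Hey families. In the epidermis the pathway is best known for helping basal cells, which carry keratin 5, commit to the keratin 10-bearing layers above them, and in the hair follicle it takes part in keeping the follicle and sebaceous gland lineages in order.

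The receptors were measured on every plate. Notch1, the receptor best known for its part in epidermal differentiation, lies at chr2:26457903-26516663 on the minus strand (GRCm38). Its level was 99.8 and 42.0 CPM at 0w, 62.3 and 32.0 at 1w pw1, 182 and 97.6 at 8w pw1, and 232 and 66.0 at 1w pw2. The plates of neighbouring groups in this order of levels overlapped throughout, from 1w pw2 (mean 149 ± 117 CPM, SD, n = 2) through 8w pw1 (140 ± 59.4) and 0w (70.9 ± 40.9) to 1w pw1 (47.2 ± 21.4).

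Notch2, a second receptor of the same build, lies at chr3:98013527-98150361 on the plus strand. It stood at 86.8 and 87.7 CPM at 0w, 81.3 and 58.7 at 1w pw1, 115 and 27.1 at 8w pw1, and 160.3 and 42.9 at 1w pw2. The 2 plates of 8w pw1 and of 1w pw2 differed from each other by more than any pair of time point means did, so no order of the time points stood out. Notch3, known mainly from smooth muscle but also present in epidermis, lies at chr17:32120820-32166852 on the minus strand and was the lowest of the receptors. Its level was 10.2 and 3.88 CPM at 0w, 14.7 and 9.66 at 1w pw1, 22.2 and 10.6 at 8w pw1, and 44.2 and 17.9 at 1w pw2. Its mean was lowest at 0w (7.05 ± 4.48 CPM) and highest at 1w pw2 (31.1 ± 18.6). Both plates of 8w pw1 and both plates of 1w pw2 lay above both plates of 0w.

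Among the ligands, the level of Jag1 varied less between the time points than those of Jag2 and Dll1. Jag1 (chr2:137081456-137116644, minus strand) stood at 101.3 and 69.1 CPM at 0w, 128 and 125 at 1w pw1, 144 and 116 at 8w pw1, and 139 and 123 at 1w pw2. All 6 plates from wounded skin lay above both plates of 0w, and the 3 wounded groups overlapped each other. The summed CPM of 3 keratinocyte marker lists, without TMM scaling, split the plates in the same way. It was 1973 to 2766 at 0w and 3657 to 4984 on the wounded plates for the 6 basal genes, 3217 to 3379 and 5122 to 37026 for the 8 suprabasal genes, and 9513 to 13677 and 16120.0 to 37103 for the 6 genes of the upper follicle duct. The 3 stress keratins Krt6a, Krt6b and Krt16 had 52.0 to 58.7 CPM at 0w and 383 to 10800 on the wounded plates. The immediate-early and dissociation genes (1117 to 1411 CPM at 0w, 455 to 1021 on the wounded plates) and the 5 fibroblast genes (20.4 to 29.5 and 0.506 to 16.1) split the plates the other way. Of the wider pathway lists, 10 genes of receptor cleavage (263 to 372 CPM at 0w, 375 to 584 on the wounded plates) split the plates as Jag1 did. So did 3 further Notch targets (13.4 to 17.9 and 28.4 to 56.5). All these sums are without TMM scaling, unlike the Jag1 levels, and whether their splits hold with it was not tested. The part of all these lists in the Jag1 values was not tested.

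Jag2 (chr12:112907819-112929776, minus strand), the second Jagged ligand, stood at 48.4 and 9.38 CPM at 0w, 2.03 and 1.05 at 1w pw1, 49.5 and 12.8 at 8w pw1, and 7.07 and 1.62 at 1w pw2. All 4 plates taken 1 week after a wound lay below all 4 plates of unwounded and healed skin, the highest of the former at 7.07 and the lowest of the latter at 9.38. Dll1 (chr17:15367354-15376872, minus strand), a Delta-like ligand, split the plates in the same way at a lower level. It stood at 5.14 and 1.995 CPM at 0w, 0 and 0.293 at 1w pw1, 7.99 and 8.61 at 8w pw1, and 1.54 and 0 at 1w pw2. Behind these values are 99 and 37 counts at 0w, 0 and 5 at 1w pw1, 111 and 132 at 8w pw1, and 22 and 0 at 1w pw2.

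The target Hes1 (chr16:30064384-30067796, plus strand), a repressor of the basic helix-loop-helix family that Notch switches on in many tissues, stood at 91.7 and 260.0 CPM at 0w, 62.3 and 38.1 at 1w pw1, 59.1 and 91.8 at 8w pw1, and 54.8 and 87.8 at 1w pw2. The high plate, 0w replicate 2, owed 77.2% of its Hes1 counts to its deepest cell, a cell of 1413810 counts. Heyl (chr4:123233556-123249875, plus strand), a repressor related to Hes1, was close to undetected. It gave 46 counts in 5 of 696 cells, each on a plate of its own, with 0 counts on both plates of 0w and on 8w pw1 replicate 2, so no fold change is given for it.

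Whether the counting used the strand of the reads was not given in the sources used here. The annotated spans of Notch1, Notch3 and Dll1 overlap those of genes on the opposite strand. For Notch3 this is the antisense gene Gm17276 over 21024 bases and for Dll1 A930024N18Rik over 1873. These spans include introns, and the overlap of exons was not measured. If strand was not used, only reads from exon sequence shared by both genes could not be told apart.

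**Figure D1:**
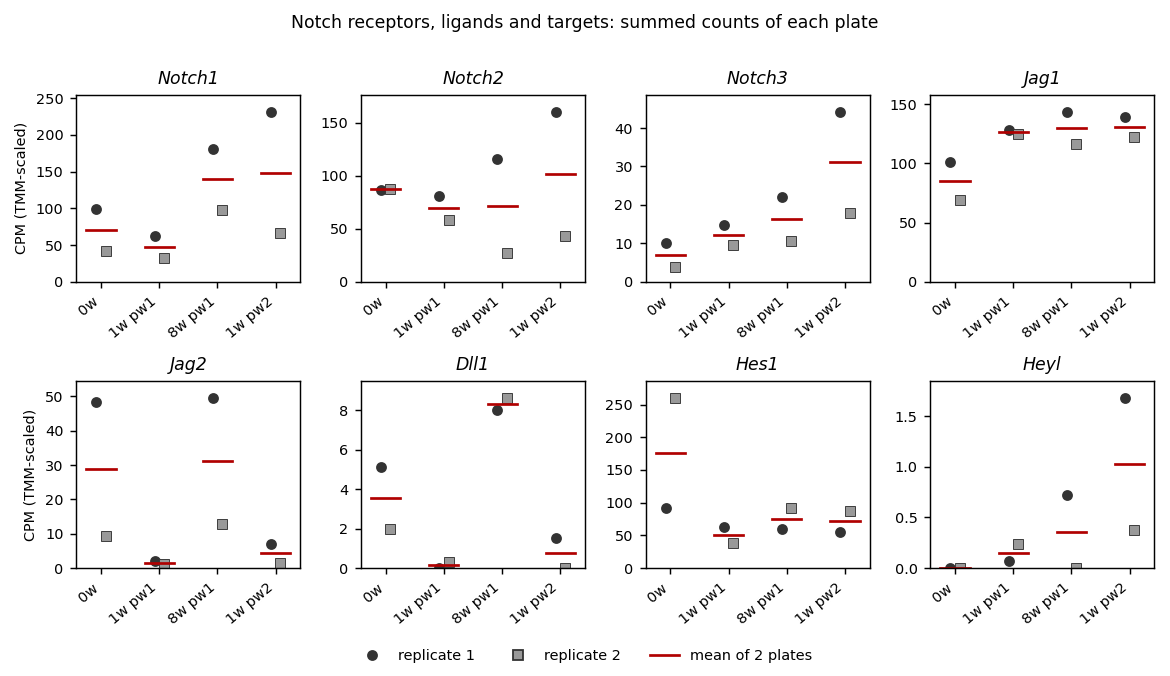
Level of each gene on each plate, in TMM-scaled CPM (linear axes that start at 0 and differ between panels), by time point; circles are replicate 1, squares replicate 2 and the red line their mean. The 4 plates of 0w and 8w pw1 lie above the 4 plates of 1w pw1 and 1w pw2 for Jag2 and Dll1, and in no other panel.

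Levels of different genes were set side by side per kilobase, with the union of all annotated exons of a gene as its length. The transcripts expressed may be shorter, so the order is approximate. Hes1 was the most abundant member, at a mean over the time points of 45.7 CPM per kb. Jag1 followed at 20.3 CPM per kb, then Notch2 at 7.65 and Notch1 at 7.14. Jag2 (2.37), Notch3 (2.06), Dll1 (0.757) and Heyl (0.0752) were lower. On this scale Jag1 was the most abundant of the 3 ligand transcripts, and Notch1 and Notch2 were close to each other. The order changed with the time point, since Notch1 was above Notch2 at 8w pw1 (9.81 against 6.61) and 1w pw2 (10.5 against 9.42) and below it at 0w and 1w pw1, and Jag2 was below Notch3 at 1w pw1 (0.221 against 1.51) and 1w pw2 (0.623 against 3.84).

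The question put to the time course is whether a gene differs after a first wound, after healing or after a second wound. By edgeR's quasi-likelihood test on the 8 plate sums, with adjustment over all 13853 genes tested, none of the 8 members passed at 1w pw1, 8w pw1 or 1w pw2 against 0w, in the joint test over the 4 time points, or in the difference between the healings (how 1w pw2 differed from 8w pw1, less how 1w pw1 differed from 0w). The call needed an adjusted p under 0.05 together with a change of more than 2-fold, or the adjusted p alone in the joint test. Over all genes the called share was 0.31% in the joint test, 0.527% at 1w pw1, 0% at 8w pw1, 0.267% at 1w pw2 and 0% for the difference between the healings, so 0 of 8 does not stand apart from that background. At an unadjusted p below 0.05 stood 2 members in the joint test, 3 at 1w pw1, 0 at 8w pw1, 3 at 1w pw2 and 0 for the difference, against 11.8%, 11.5%, 6.47%, 12.6% and 5.34% of all genes. Of the 3 at 1w pw2 1 is Heyl, whose plates of 0w are both at 0 counts and whose 1w pw2 counts come from 2 cells, which leaves Notch3 and Jag2. DESeq2 called 2, 1, 0, 0 and 0 members in the same order, against 6.32%, 5.22%, 1.12%, 4.97% and 0.556% of all genes. It called Jag2 at 1w pw1 (adjusted p = 0.000494) and Jag2 and Dll1 in the joint test. With the replicate number as a block edgeR called Jag2 in the joint test (adjusted p = 0.0316) and at 1w pw1, and no other member in any of the 5 tests. The blocked fit called 1.09% and 1.7% of all genes in those 2 tests, 0.0217% at 8w pw1, 0.693% at 1w pw2 and 0.0217% for the difference between the healings.

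Of the ligands, Jag2 gave the lowest adjusted p of all members at 1w pw1. Its log2 ratio, the fitted log2 fold change against 0w, was -4.23 at 1w pw1 (SE 1.12, adjusted p = 0.152, edgeR). It was -2.74 at 1w pw2 (SE 1.04, adjusted p = 0.321, edgeR) and 0.11 at 8w pw1 (SE 0.97). Leaving out single plates moved the value at 1w pw2 to between -4.16 (1w pw2 replicate 1) and -1.13 (0w replicate 1). With the replicate block the value at 1w pw1 was -3.85 (SE 0.63, adjusted p = 0.0220, edgeR), which is a call. Over the alternatives its adjusted p at 1w pw1 ran from 0.000494 to 0.645, and its log2 ratio was -2.64 without 0w replicate 1 and -4.99 without 0w replicate 2. Dll1 showed the same order of values, -4.51 (SE 1.79, adjusted p = 0.355) at 1w pw1, -2.22 (SE 1.57) at 1w pw2 and 1.22 (SE 1.49) at 8w pw1. With every cell scaled to the same total these values were -5.87, -3.86 and 0.09. Leaving out single plates moved the value of Dll1 at 8w pw1 to between 0.66 (0w replicate 2) and 1.99 (0w replicate 1). The value of Dll1 at 1w pw2 was -1.18 without 1w pw2 replicate 2, and none is given without 1w pw2 replicate 1, since the plate that remains has 0 counts. For the same reason none is given at 1w pw1 without 1w pw1 replicate 2. By edgeR without the block neither gene passed the test at 1w pw1, and with the block Dll1 did not (adjusted p = 0.337), although no plate of 0w and 1w pw1 overlapped.

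On both plates of 0w and 8w pw1 more cells were Krt5-high than at 1 week after a wound, and this moves with Jag2 and Dll1, which were found mostly in such cells. From 0w through 1w pw1 and 8w pw1 to 1w pw2 there were 86, 26, 83 and 37 Krt5-high cells, against 43, 116, 50 and 114 Krt10-high cells. A lower plate sum can come from fewer cells of a type or from less RNA per cell, which plate sums alone cannot tell apart. Within Krt5-high cells alone the 4 plates of 1w pw1 and 1w pw2 held 7.39, 5.47, 18.0 and 7.96 CPM of Jag2, against 77.9, 15.7, 72.0 and 37.8 on the plates of 0w and 8w pw1, so across the numbers the groups overlapped by the pair of 18.0 (1w pw2 replicate 1) and 15.7 (0w replicate 2). Among plates of the same number they did not overlap. The log2 ratio of Jag2 in these cells was -2.90 at 1w pw1 (SE 1.01, adjusted p = 0.343, edgeR) and -1.90 at 1w pw2 (SE 0.96). With the replicate block it was -2.58 (SE 0.85, adjusted p = 0.279, edgeR) and -1.70 (SE 0.80), so neither fit called it within the class.

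Of the receptors, Notch3 had the largest fold change. Its log2 ratio was 0.79 (SE 0.73) at 1w pw1 and 2.14 (SE 0.75, adjusted p = 0.280, edgeR) at 1w pw2. Leaving out single plates moved the former to between 0.24 (0w replicate 2) and 1.61 (0w replicate 1), and the latter to between 1.33 (1w pw2 replicate 1) and 2.97 (0w replicate 1). On 1w pw2 replicate 2, 1 Krt10-high cell held 54.5% of its counts. Notch1 stood at -0.59 (SE 0.70) at 1w pw1 and 1.07 (SE 0.70) at 1w pw2, values whose direction turned to 0.13 and -0.12 without 0w replicate 1 and without 1w pw2 replicate 1.

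The target Hes1 was not called over time by edgeR, with a log2 ratio of -1.81 (SE 0.61, adjusted p = 0.252, edgeR) at 1w pw1, -1.22 (SE 0.60) at 8w pw1 and -1.30 (SE 0.60) at 1w pw2. Without the deepest cell of each plate the value at 1w pw1 was -0.69, and with every cell scaled to the same total it was 0.045. In the same order the Hes1 value was -0.46 and -0.34 for 8w pw1, and -0.23 and -0.18 for 1w pw2. Without 0w replicate 2 the 1w pw2 value was -0.38, the 8w pw1 value -0.31 and the 1w pw1 value -0.88. The difference between the healings gave its lowest adjusted p for Hes1, at 1.73 (SE 0.84, adjusted p = 0.945, edgeR), and lay at -0.56 (SE 0.62) for Jag1. For Hes1 it was 0.92 without the deepest cell of each plate, 0.11 with every cell scaled to the same total and 0.81 without 0w replicate 2.

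The share of cells in which a member was detected was counted after every cell had been thinned to 20000 counts, which kept 645 of 696 cells. Jag2 was found in 36.0% of cells (95% exact interval 26.0 to 47.1) and 18.5% at 0w, 2.50% and 1.28% at 1w pw1, 28.4% and 17.8% at 8w pw1, and 8.43% and 1.20% at 1w pw2. The split between the plates was that of the levels. A share after thinning falls with the level per cell too, so these shares do not tell fewer cells from a lower level in each. Dll1 was found in 8.14% and 4.94% of cells at 0w, 8.64% and 4.11% at 8w pw1, and 2.41% and 0% at 1w pw2. At 1w pw1 it was in 0 of 80 and 0 of 78 thinned cells, where the exact intervals reach 4.51% and 4.62% and 3 counts of the total give 3.75% and 3.85%. Without thinning it was in 1 cell of 1w pw1 replicate 2.

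Notch3 went the other way, from 9.30% and 1.23% of cells at 0w to 26.2% and 15.4% at 1w pw1, 19.8% and 12.3% at 8w pw1, and 36.1% and 14.5% at 1w pw2. Each of the 6 plates from wounded skin held a larger share of Notch3 cells than either plate of 0w. The summed CPM, without TMM scaling, of the basal, suprabasal and upper follicle duct genes and of the stress keratins split these plates in the same way. Krt10-high cells were 22.7% and 25.3% of a plate at 0w against 26.4% to 74.7% on the wounded plates. The part of these genes and of the cell classes in the Notch3 values was not tested. Jag1 was in 48.1% to 65.1% of cells, Notch1 in 30.9% to 74.1%, Hes1 in 32.9% to 54.7% and Notch2 in 21.9% to 62.7%, and Heyl was in no thinned cell. With 2 plates against 2 an exact permutation test of shares cannot go below p = 0.3333, so shares were not tested between time points. Intervals and limits cover counting error only, since reads of this protocol carry no molecular identifiers.

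**Figure D2:**
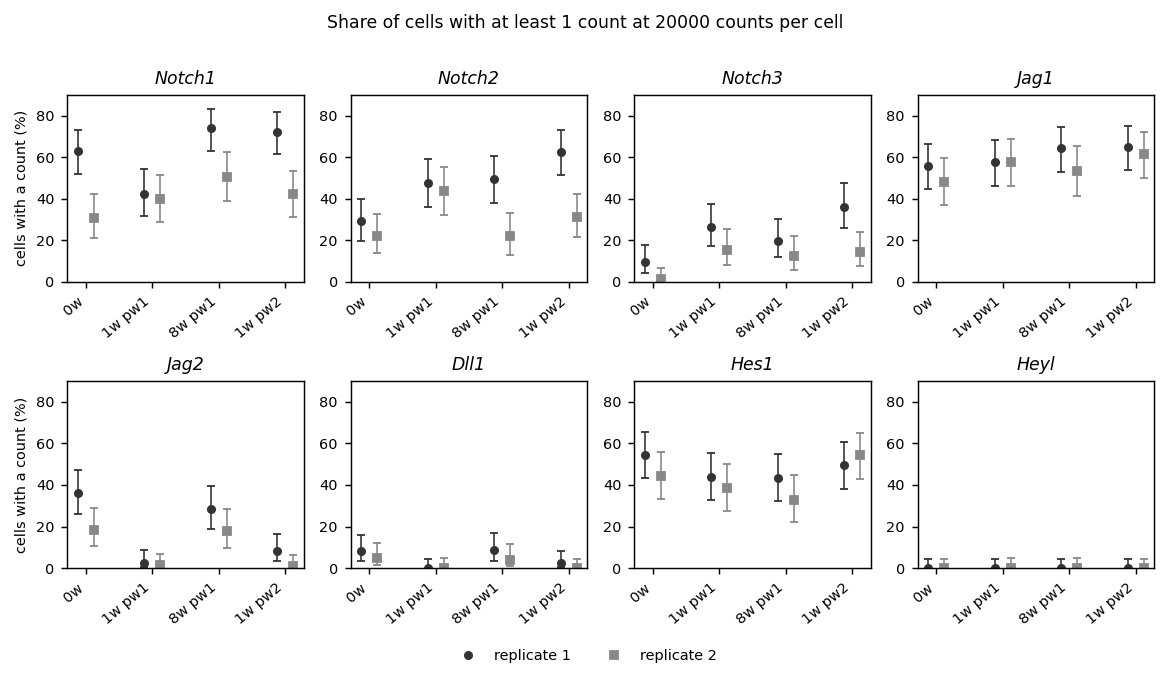
Percentage of cells with at least 1 count of each gene after thinning to 20000 counts per cell, on each plate by time point; circles are replicate 1, squares replicate 2, and bars are exact 95% intervals for counting error. Jag2 lies at 17.8% or more on the plates of 0w and 8w pw1 and at 8.43% or less on those of 1w pw1 and 1w pw2, and Notch3 is lowest on the plates of 0w.

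The second question is where along epidermal differentiation the members are expressed. Cells were called Krt5-high when their Krt5 level exceeded that of Krt10 at least 4-fold (10 CPM added to each) and reached 100 CPM, and Krt10-high by the mirror rule, which gave 232 and 323 cells and left 141 in neither class. These are ranges of a ratio and not cell types, and 89 cells lay within 1 log2 unit of a boundary. Krt5-high cells had a median of 1502 CPM of Krt14 and 129 CPM of Itga6, both of the basal layer. Krt10-high cells had 909 CPM of Krt14 and 3.85 CPM of Itga6, so Krt14 separated the classes less, and medians of 303 CPM of Krt1 and 1682 CPM of Calm4 from the upper layers, beside 2577 CPM of Krt79 and 1237 CPM of Cst6, which mark the duct and funnel of the upper follicle. The class thus holds upper follicle cells as well as suprabasal ones. Krt10-high cells were deeper, with a median of 156088 counts against 108643.

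Counts were summed per plate and class and compared within plates by edgeR, with adjustment over 10307 genes. Of the 6 members that passed the filter on low counts 2 were called, Jag2 lower and Notch2 higher in Krt10-high cells. Of all genes tested 8.97% were called, 4.81% higher and 4.16% lower, so 1 member in each direction is set against that background. Both calls held without any 1 plate. Dll1 and Heyl did not pass the filter, and 3 members were called when none was applied, Dll1 being the third.

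Jag2 ran from 5.47 to 77.9 CPM in Krt5-high cells over the 8 plates, with a median of 16.8. In Krt10-high cells it ran from 0 to 11.7 CPM, with a median of 0.314. It was lower in Krt10-high cells on 8 of 8 plates, and only 8w pw1 replicate 1 held more than 1 CPM there. The log2 ratio of Krt10-high over Krt5-high was -5.30 (SE 0.72, adjusted p = 0.000653, edgeR). Without the cell richest in it on each plate and class, Jag2 no longer passed the filter, and Notch2 was then the 1 member called.

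The Delta-like ligand Dll1 gave 323 counts in Krt5-high cells and 1 count in Krt10-high cells, where 7 of 8 plates were at 0. The ratio of the rates, with the counts of all plates pooled, was 608. Its exact 95% interval of 108 to 24082 treats every read as independent. It covers neither copies of the same molecule nor the spread between plates. On 8w pw1 replicate 2 a single Krt5-high cell held 89.4% of the Dll1 counts and 45.2% of those of Jag2. Dll1 was higher in Krt5-high cells on 6 of 8 plates, and on the other 2 it was at 0 in both classes.

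Notch2 showed the opposite placement. In Krt5-high cells it ran from 6.38 to 65.4 CPM with a median of 38.8, and in Krt10-high cells from 47.0 to 363 CPM with a median of 141. It was higher in Krt10-high cells on 8 of 8 plates, by a log2 ratio of 2.16 (SE 0.36, adjusted p = 0.00246, edgeR). With every cell scaled to the same total this ratio was 1.52 (SE 0.31), which is also a call. The groups overlapped in range, since 1w pw2 replicate 2 held 47.0 CPM in its Krt10-high cells and 8w pw1 replicate 1 held 65.4 in its Krt5-high cells.

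Over all plates the other receptors did not pass. Notch3 ran from 0.308 to 54.9 CPM in Krt5-high cells (median 7.42) and from 8.71 to 46.7 in Krt10-high cells (median 23.6), and was higher in the latter on 7 of 8 plates. Its log2 ratio of 2.14 (SE 0.78, adjusted p = 0.113, edgeR) was as large as that of Notch2 with a wider error, and DESeq2 called it (adjusted p = 0.00485). With every cell scaled to the same total the ratio of Notch3 was 1.41 (SE 0.70). Notch1 leaned towards Krt5-high cells on 7 of 8 plates, with a median of 105 against 65.2 CPM and a log2 ratio of -0.75 (SE 0.25, adjusted p = 0.0842, edgeR). Notch1 and Notch2, close in total level, therefore stood on different sides of 0 in this comparison, but their difference from each other was not tested.

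Jag1 was found in both classes, with medians of 194 CPM in Krt5-high and 88.3 in Krt10-high cells. It was higher in Krt5-high cells on 6 of 8 plates, at a log2 ratio of -0.93 (SE 0.34, adjusted p = 0.115, edgeR). Hes1 had medians of 73.6 and 68.4 CPM, was higher in each class on 4 of 8 plates, and its log2 ratio was 0.52 (SE 0.48, adjusted p = 0.592, edgeR). On 0w replicate 2 it stood at 69.0 CPM in Krt5-high and 806 CPM in Krt10-high cells, and with every cell scaled to the same total its log2 ratio was -0.015.

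**Figure D3:**
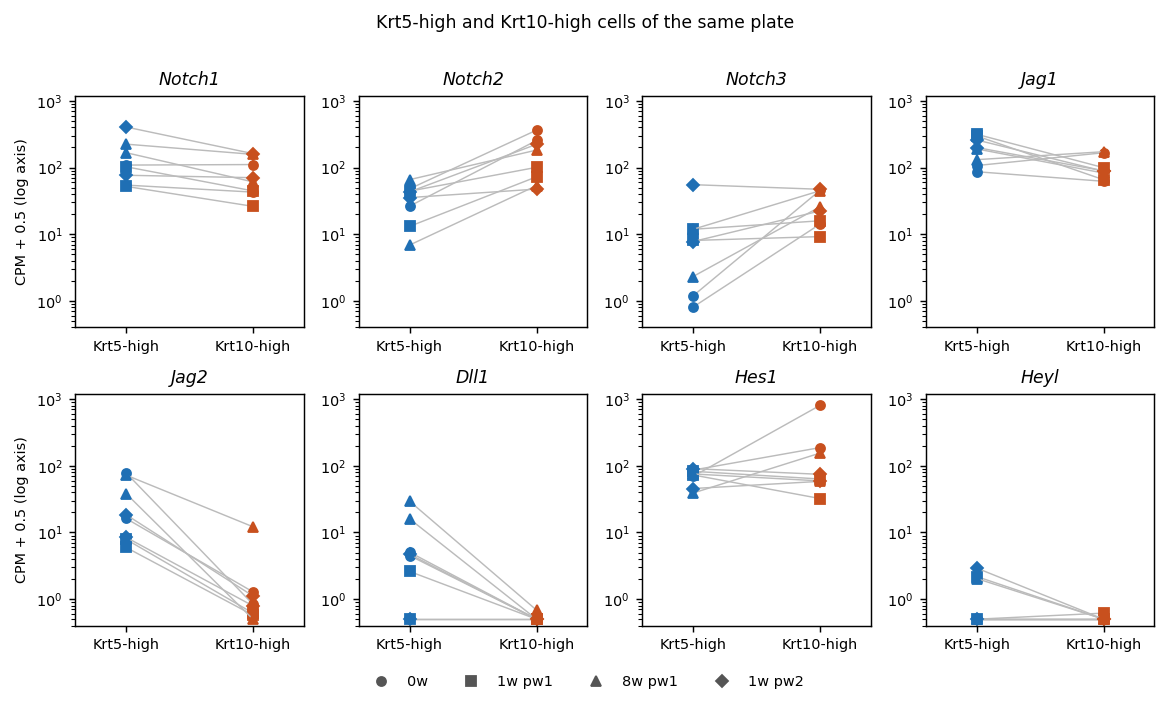
Level of each gene in Krt5-high (blue) and Krt10-high (orange) cells of the same plate, in CPM with 0.5 added on a log axis; each grey line joins the classes of 1 plate and the symbol gives its time point. All 8 lines fall for Jag2 and all 8 rise for Notch2, while those of Hes1 go both ways.

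The share of cells with a member, thinned to the same depth, separated the classes for 4 of the 8 members by an exact two-sided sign-flip test over the 8 plates, in which no p can be below 0.0078125. The 8 p-values are unadjusted, and by the same test 17.6% of the 15430 genes seen in a thinned cell were below 0.05. Of the 6 members in at least 10% of thinned cells 4 passed, against 24.8% of all genes as widely seen. Jag1 was in 72.8% ± 12.2 (SD, n = 8 plates) of Krt5-high and 49.8% ± 7.26 of Krt10-high cells, lower in the latter on 8 of 8 plates (exact permutation p = 0.0078125). Jag2 was in 23.6% ± 16 and 1.97% ± 2.29, lower in Krt10-high cells on 7 of 8 plates and in no cell of either class on the eighth (exact permutation p = 0.015625, n = 8).

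For the receptors, Notch2 was in 27.3% ± 11.8 of Krt5-high and 46.6% ± 17.2 of Krt10-high cells, higher in the latter on 7 of 8 plates (exact permutation p = 0.015625, n = 8). Notch1 was in 58.2% ± 15.9 and 46.4% ± 17.6 (exact permutation p = 0.015625, n = 8), a difference of -11.8 percentage points. Without thinning it was in 75.7% and 75.1%, a difference of -0.60 points that did not pass (exact permutation p = 0.836, n = 8), so the Notch1 result rests on thinning. Notch3 was in 17.0% ± 18.1 and 22.6% ± 12 (exact permutation p = 0.422, n = 8). The Notch3 difference grew from 5.63 to 27.6 points without thinning (exact permutation p = 0.03125, n = 8). Hes1 was in 46.0% ± 16 and 51.9% ± 14.0 (exact permutation p = 0.461, n = 8), and Dll1 in 5.62% ± 5.51 and in none of 303 thinned Krt10-high cells (exact permutation p = 0.0625, n = 8). For Dll1 the same test gave p = 0.03125 both without thinning and after thinning to 50000 counts (exact permutation, n = 8).

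Counted over all plates, 65 of the 93 thinned cells with Jag2 were Krt5-high, 4 were Krt10-high and 24 were in neither class. Of the 23 cells with Dll1, 17 were Krt5-high and 6 in neither class. Of these 23 cells 12 also held Jag2 (52.2%), against 13.0% of cells without Dll1. Cells are not replicates, so these shares are a description, as are the following ones of markers picked with the data in view. Among Krt5-high cells, 84.6% of those with Jag2 also had Krt15, a keratin of follicle stem cells, against 70.9% of those without it, 16.9% against 8.11% had Cd34, 20% against 14.2% Lgr5, and 64.6% against 50.7% Postn. Sox9, a factor of the same stem cells, was in 50.8% against 52.7%. Krt17, a keratin of the follicle's outer sheath and of stressed epidermis, was in 40% against 61.5%, and Krt79 in 13.8% against 21.6%. Summed CPM of the 6 detected bulge genes, without TMM scaling, split the plates as Jag2 did, lower on all 4 plates taken 1 week after a wound. It was 200 to 288 at 0w, 75.1 to 97.7 at 1w pw1, 179 to 180.2 at 8w pw1 and 107 to 144 at 1w pw2. The 6 sebaceous genes split the plates likewise. Their sum was 1046 and 7599 at 0w, 487 to 504 at 1w pw1, 1078 to 3785 at 8w pw1 and 659 to 933 at 1w pw2. Whether these splits hold after TMM scaling was not tested, nor was the part of either list in the Jag2 values.

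The stretch before the RefSeq start site is shown for 3 members that stood on different sides of the classes, Notch2 and Notch3 with higher values in Krt10-high cells and Dll1 with almost all its counts in Krt5-high cells. RefSeq entries (GRCm38.p6) were matched by symbol for 6 of the 8 members, and Hes1 and Heyl were not matched. Of each 250-base window only the part outside the gene's annotated span is shown, written 5′ to 3′ on the strand of the gene: Notch2 at chr3:98013288-98013526 (plus), Notch3 at chr17:32166891-32167140 (minus) and the upstream start site of Dll1 at chr17:15376933-15377182 (minus). The windows of Notch1, Jag2 and the downstream start of Dll1 lie inside the annotated gene, and that of Jag1 in part. Capitals mark every match, on either strand, to 5 motifs, with N for any base. They are the RBPJ core (TGGGAA), the N-box bound by Hes proteins (CACNAG), an AP-1 pattern (TGANTCA), the CCAAT box and the GC box (GGGCGG).
Notch2: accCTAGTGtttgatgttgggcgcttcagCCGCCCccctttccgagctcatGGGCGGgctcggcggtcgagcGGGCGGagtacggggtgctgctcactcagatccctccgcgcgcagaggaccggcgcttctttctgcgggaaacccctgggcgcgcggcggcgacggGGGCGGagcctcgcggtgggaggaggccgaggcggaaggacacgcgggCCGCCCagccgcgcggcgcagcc
Notch3: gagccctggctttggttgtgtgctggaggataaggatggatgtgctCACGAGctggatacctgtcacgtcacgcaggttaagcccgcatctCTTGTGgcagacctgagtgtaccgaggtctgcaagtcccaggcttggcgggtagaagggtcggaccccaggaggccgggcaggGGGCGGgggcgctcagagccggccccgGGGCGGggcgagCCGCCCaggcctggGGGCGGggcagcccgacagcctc
Dll1: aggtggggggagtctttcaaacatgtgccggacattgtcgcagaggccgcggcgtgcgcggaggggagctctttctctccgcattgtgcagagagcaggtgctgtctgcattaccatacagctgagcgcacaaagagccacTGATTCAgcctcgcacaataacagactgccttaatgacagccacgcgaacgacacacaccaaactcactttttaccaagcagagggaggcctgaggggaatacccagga

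The RBPJ core was in none of the 7 windows of the 6 members, against 21.6% of the 32536 RefSeq windows of the same length. The N-box, held by 36.7% of all windows, occurred once each before Notch1 and Notch2 and at 2 places before Notch3, and in no window of a ligand. GC boxes, in 33.0% of all windows, numbered 5 before Notch1, 5 before Notch2, 4 before Notch3 and 5 before Jag2. The AP-1 pattern, open to any base at its centre, was in 6.73% of all windows. Its only match here, TGATTCA, was in the upstream window of Dll1, 109 bases before the start. The CCAAT box (33.8%) was in the downstream window of Dll1 only. The windows were rich in G and C, at 87.2% for Jag2, 72.0% for Notch2, 68.8% for Notch3, 66.0% for Notch1, 57.2% for Jag1, and 64% and 56% for Dll1, against a median of 52.4%. A match describes these letters and is not evidence of binding.

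Whether the class difference itself changed over the time course was tested with an interaction of class and time point. It was called for 0 of the 6 members by edgeR (1 at an unadjusted p below 0.05, Notch3) and for 0% of all genes tested, 548 of which (5.32%) reached an unadjusted p under 0.05. By DESeq2 193 genes (1.87%) were called, among them Notch3 (adjusted p = 0.00711) as the only member. The values per plate follow as a description.

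In Krt5-high cells Notch3 stood at 0.693 and 0.308 CPM at 0w, 11.4 and 7.57 at 1w pw1, 11.4 and 1.82 at 8w pw1, and 54.9 and 7.27 at 1w pw2. In Krt10-high cells it was at 45.1 and 13.7, 15.4 and 8.71, 44.4 and 25.3, and 46.7 and 21.9 CPM at the same time points. In unwounded skin the receptor was thus mostly in Krt10-high cells, with 134 and 70 counts against 7 and 2 in Krt5-high cells, and all 6 plates from wounded skin held more of it in Krt5-high cells than either plate of 0w. The fitted log2 class difference was 5.73 (0w), 0.32 (1w pw1), 2.82 (8w pw1) and 0.65 (1w pw2). At 0w it passed the call (SE 1.02, adjusted p = 0.0479, edgeR), as did 0.66% of all genes there. No other member passed within a single time point, and over all genes the called share was 0.175% within 1w pw1, 1.03% within 8w pw1 and 0.155% within 1w pw2. Within Krt5-high cells alone the log2 ratio of Notch3 against 0w was 5.82 at 1w pw2 (SE 1.49, adjusted p = 0.267, edgeR), which did not pass. In Krt10-high cells alone it was -1.32 at 1w pw1 (SE 0.87), the opposite direction to that over all cells.

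Jag1 in Krt5-high cells stood at 107 and 86.1 CPM at 0w, 297 and 315 at 1w pw1, 190 and 131 at 8w pw1, and 199 and 259 at 1w pw2. These plates did not overlap between 0w and any later group. In Krt10-high cells Jag1 stood at 166 and 61.7, 65.1 and 99.1, 82.1 and 172, and 88.7 and 87.8 CPM, with overlap throughout. The log2 ratio at 1w pw1 was 1.62 in Krt5-high cells (SE 0.60, adjusted p = 0.370, edgeR) and -0.51 in Krt10-high cells (SE 0.69), and neither passed the test. The fitted class difference of Jag1 was 0.08 (0w), -1.93 (1w pw1), -0.41 (8w pw1) and -1.37 (1w pw2).

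Jag2 kept its direction at each time point, with a fitted class difference of -5.79 (0w), -5.81 (1w pw1), -4.88 (8w pw1) and -4.76 (1w pw2). The same holds for Notch2, at 3.11, 1.83, 2.23 and 1.41. Hes1 in Krt10-high cells was 187 and 806 CPM at 0w against 62.8 and 31.7 at 1w pw1, and the 806 rests mostly on the 1 deep cell with 77.2% of that plate's Hes1 counts, while in Krt5-high cells it stood between 38.5 and 89.98 CPM on all 8 plates. Summed in CPM without TMM scaling, the 9 immediate-early and dissociation genes, such as Fos and Jun, were also highest at 0w. The sums were 1117 and 1411 there, 736 to 1021 at 1w pw1, 455 to 589 at 8w pw1 and 477 to 612 at 1w pw2. Whether this order holds after TMM scaling was not tested, nor was the part of these genes in the Hes1 values.

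**Figure D4:**
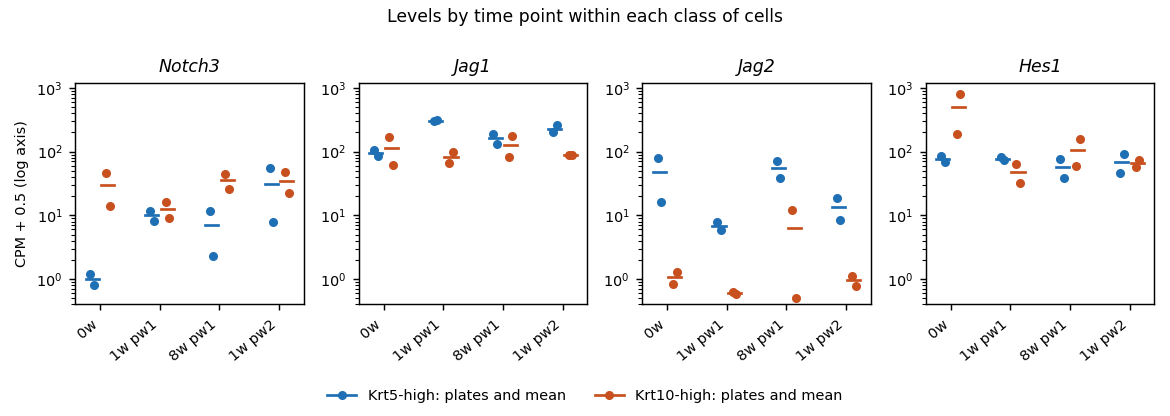
Levels of Notch3, Jag1, Jag2 and Hes1 by time point in Krt5-high (blue) and Krt10-high (orange) cells, in CPM with 0.5 added on a log axis; points are plates and lines the mean of the 2 plates. Notch3 is below 1 CPM in Krt5-high cells at 0w alone, Jag1 of Krt5-high cells is higher on each plate from wounded skin than at 0w, and Hes1 of Krt10-high cells is highest at 0w, where 1 deep cell carries most of the upper point.

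The wider pathway was covered by 48 further genes in 6 lists by role, of which 44 were in the table and 40 were tested over time. None of the 40 was called in any of the 5 time comparisons by edgeR. At an unadjusted p below 0.05 stood 6 in the joint test, 7 at 1w pw1, 3 at 8w pw1, 6 at 1w pw2 and 3 for the difference between the healings. Over all genes the called shares in this order were 0.31%, 0.527%, 0%, 0.267% and 0%. The shares of all genes below the unadjusted 0.05 were 11.8%, 11.5%, 6.47%, 12.6% and 5.34%. DESeq2 called 2, 4, 0, 2 and 0 of the 40 in the same order, against 6.32%, 5.22%, 1.12%, 4.97% and 0.556% of all genes. The fit with the replicate block called 1, 2, 0, 0 and 0 of the 40, against 1.09%, 1.7%, 0.0217%, 0.693% and 0.0217%. Between the classes 3 of 32 tested genes were called, or 9.38%, close to the 8.97% of all genes, and all 3 were higher in Krt10-high cells (DESeq2 called 4, and 17.7% of all genes). The median log2 ratio of the 32 genes was 0.51 against 0.01 over all genes, with 24 of 32 above 0.

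By role, the other receptors and ligands (Notch4, Dll3 and Dlk2 in the table) stayed at or below 1.87 CPM on every plate and were not tested between classes. None of 5 tested genes of receptor glycosylation and ligand uptake and none of 9 protease genes was called. In the nuclear complex 1 of 10 was called, Kat2b, a histone acetyltransferase that works with the Notch activation complex, at a log2 ratio of 1.48 (SE 0.42, adjusted p = 0.0425, edgeR). Rbpj itself, the DNA-binding partner of Notch, stood at 1.08 (SE 0.53, adjusted p = 0.246). Of 7 inhibitors and turnover genes 1 was called, Dtx4, an E3 ligase of the Deltex family, with a median of 0.256 CPM in Krt5-high and 21.6 CPM in Krt10-high cells. Its classes did not overlap over the 8 plates (highest 4.56 against lowest 7.18 CPM), and its log2 ratio was 5.04 (SE 0.80, adjusted p = 0.00182, edgeR). Among the other targets, Nrarp, which is switched on by Notch and dampens it, was the 1 gene tested and was higher in Krt10-high cells on 8 of 8 plates, at 1.78 (SE 0.50, adjusted p = 0.0440, edgeR).

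**Figure D5:**
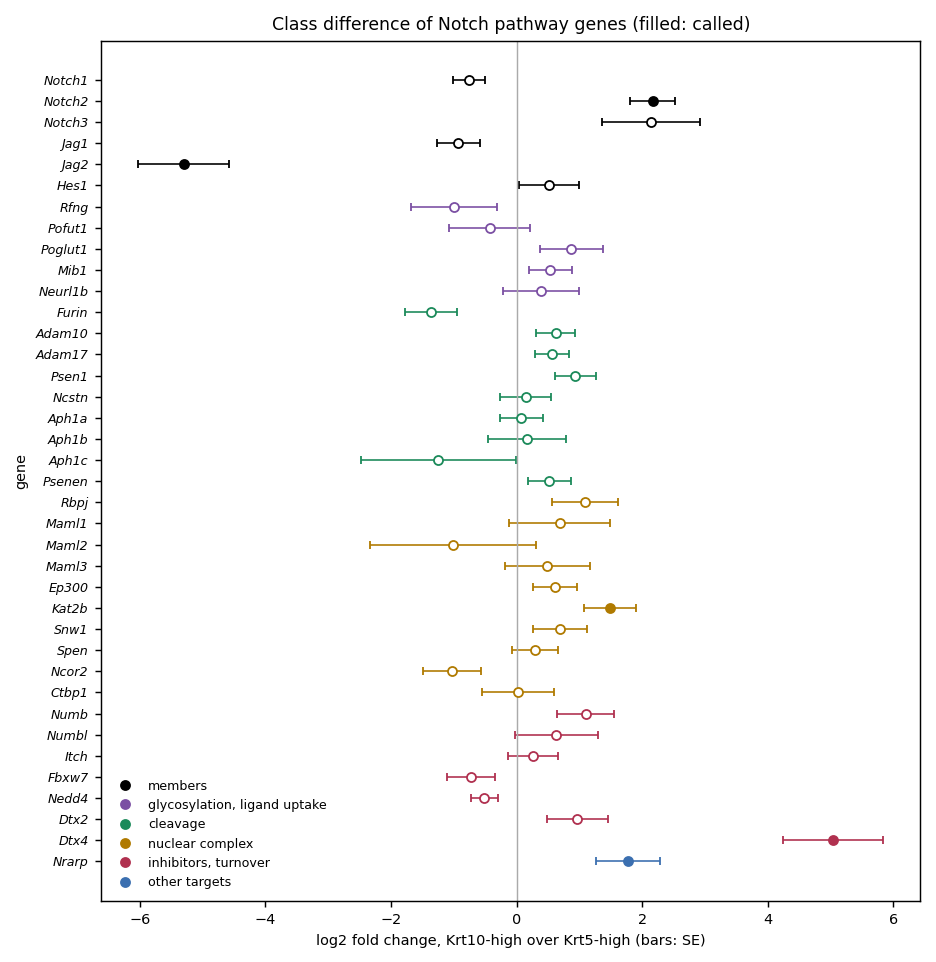
Log2 ratio of Krt10-high over Krt5-high cells with its standard error for the 6 tested members (black) and the 32 tested genes of the wider lists, coloured by role; filled points were called. Jag2 at -5.30 and Dtx4 at 5.04 lie farthest from 0, and Notch2, Kat2b and Nrarp are the other filled points.

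The genes whose level over single cells was most like that of each member were ranked by the mean Spearman correlation within the 8 plates, over 10230 genes seen in at least 10% of cells. These correlations are weak, share the libraries and their depth, and are given without a test. Jag2 had the highest, with Ctnnal1 (0.504), Tns3 (0.436) and Megf6 (0.414). Notch3 came next with Lypd3 (0.356), Agpat3 (0.351) and Nrarp (0.334). Notch2 was most like Myo5b (0.324), Slc5a1 (0.304) and Nectin4 (0.303), Notch1 like Plec (0.318), Eef2 (0.30) and Rpl8 (0.297), and Jag1 like Msn (0.291), Krt5 (0.263) and Cd44 (0.240). Hes1 reached 0.183 with Reep5, 0.181 with Notch1 and 0.174 with Bap1. Dll1, itself in fewer than 10% of cells, was closest to Jag2 (0.306), Prkd3 (0.293) and Large2 (0.280) over the 6 plates on which it was found.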

How the data were processed

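Single tdTomato+ keratinocytes were sequenced by a modified Smart-seq2 protocol, which reads whole transcripts without molecular identifiers. Estimated counts were deposited by the authors as 1 table of genes by cells, not normalised and made with Salmon 0.13.1, and 96.6% of its values are whole numbers. Per the labels the builds are mm10 and GRCm38. R 4.0.3 and Seurat are named in the submitters' processing notes. The study describes filters on shallow cells, cells rich in mitochondrial reads and rare genes. In the deposited table every cell has at least 1001 genes and at most 49.4% of its counts in the 13 genes named mt-, and every gene is in at least 4 cells. Of the columns 0 lacked a sample.

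The expected counts of all cells of a plate, or of a plate and class, were summed, rounded and tested with edgeR 4.0.16 in R 4.3.3 (TMM scaling, default filter, quasi-likelihood test, Benjamini-Hochberg adjustment over all genes tested), with the time point as term, or plate and class. The study used an edgeR test with 0w as reference for its bulk samples. A sum of fewer than 5 cells would have been left out, and no plate had one. The SE is the absolute log2 fold change divided by the square root of F. The biological coefficient of variation was 0.61 over time and 0.66 between classes, with 4 and 7 residual degrees of freedom. Deviations of same-numbered plates from their group means correlated at 0.121 to 0.213 in all 6 pairs of time points, so the numbers were taken to pair the plates, on the data alone since no label ties a number to an animal or experiment, and values with the replicate number as a block are given where they change a call. The fits were tested on simulated data with known changes.

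Levels of members and of single pathway genes are TMM-scaled CPM. Values of marker genes, list sums and single cells are CPM of the plain total. Shares were compared with an exact sign-flip test, with exact Clopper-Pearson intervals at 95%, and a limit for 0 cells of 3 counts of the total. Coordinates and exon lengths come from GENCODE on GRCm38, a release other than the authors', matched by symbol. Alternatives were DESeq2 1.42.0, relative log expression scaling, no filter, equal scaling of cells, leaving out deep cells or plates, single classes, other class boundaries, other thinning, and the replicate number as a block. Named are all members, up to 3 called pathway genes per comparison and the 3 genes most like each member. Members, lists and tests were chosen with earlier results of these data known, and the removal of each gene's richest cell and the block within single classes after values were seen.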

Additional observations from a re-analysis of the deposited data

Results flagged for a closer look

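Hes1 differed between the classes in opposite directions at 0w and 1w pw1. The log2 ratio of Krt10-high over Krt5-high cells, with 0.5 CPM added to each, was 1.12 and 3.54 on the plates of 0w and -0.38 and -1.18 on those of 1w pw1, so both plates of each group moved one way and the groups apart. This difference between 2 time points was not tested by itself. The joint test of class and time point did not call Hes1 (adjusted p = 0.931, edgeR), and the ratios at 8w pw1 (-0.35 and 1.99) and 1w pw2 (0.36 and -0.28) lay on both sides of 0. On 0w replicate 2 the deepest cell, which is Krt10-high, held 77.2% of the Hes1 counts of the plate. The unadjusted p of the joint test for Hes1 was 0.0791 with all cells, 0.271 without the deepest cell of each plate and class, 0.561 without the cell richest in it, and 0.0137 with every cell scaled to the same total (edgeR), with adjusted p at 0.873 or above in these 4 fits. The unadjusted p was 0.0321 without the filter on low counts (adjusted p = 0.777, edgeR) and 0.0359 by DESeq2 (adjusted p = 0.371).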

How the results depend on the processing

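No member was called over time under any alternative other than DESeq2 and the block. DESeq2 called 2 members in the joint test, 1 at 1w pw1 and 1 in the interaction of class and time point. With the replicate number as a block 1 member was called in the joint test and 1 at 1w pw1, Jag2 in both, at 1w pw1 with a log2 fold change of -3.85 (adjusted p = 0.0220, edgeR) and in the joint test with an adjusted p of 0.0316. The block raised the calls over all genes from 73 to 236 at 1w pw1 and from 37 to 96 at 1w pw2. The block changed no other call of a member. DESeq2 called 723 genes at 1w pw1, 155 at 8w pw1, 688 at 1w pw2, 77 for the difference between the healings, 875 in the joint test, 1825 between classes and 193 in the interaction. Without the richest cell of each gene per plate and class 1 member was called between classes, since Jag2 no longer passed the filter. Otherwise Jag2 and Notch2 kept their class calls under all alternatives.

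Some values that passed no test turned direction, and apart from plates left out and the class split the cause was not tested. With equal scaling of cells Hes1 was 0.045 at 1w pw1 and -0.015 between classes, and Jag2 at 8w pw1 was -0.25. Without each gene's richest cell Jag2 at 8w pw1 was -0.084, and with plates left out it ran from -1.16 to 1.65. In Krt10-high cells alone Notch3 at 1w pw1 was -1.32, and with the replicate block added it was -1.15 and Jag1 for the difference between the healings was 0.016. With plates left out Notch1 ran from -1.16 to 0.13 at 1w pw1 and from -0.12 to 1.80 at 1w pw2. The Hes1 share difference was -2.79 points at 3 or more counts. Some other values passed a test they had not passed. Jag2 at 1w pw1 and the shares of Dll1 did so in 2 fits each, and the class value and the share of Notch3 in 1 each. In the joint test Jag2 passed by DESeq2 and with the block, and Dll1 by DESeq2. Notch3 passed in the interaction by DESeq2, and Dll1 between classes without the filter on low counts. The share of Notch1 lost its pass without thinning. With 2 plates a group, the spread between plates limits what could be called over time, and Dll1 and Heyl are limited by their counts.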
